A study of Mus musculus with 4 samples.

Results

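miR-146a, miR-146b and miR-155, the miRNAs best known for tuning inflammatory signalling, were read out across small RNA libraries of the mouse main olfactory epithelium. The set was chosen by name, as every row of the authors' deposited table called miR-146a, miR-146b or miR-155 from either arm of the precursor, and it holds 6 of the table's 1167 miRNAs. The tissue holds the olfactory sensory neurons with their sustentacular, basal and glandular neighbours, and it came from male C57BL/6 mice 3 months of age. 2 libraries were wild type, and 2 were AC3-/-, from mice lacking adenylyl cyclase 3, which couples odorant receptors to cAMP production in the cilia of those neurons. No treatment is given in the labels. Whether the libraries of each genotype stem from different animals is not stated in the labels, so every p-value below reflects the spread between libraries, which could be technical. RNA came from bulk tissue, so fewer cells of a type and less RNA per cell cannot be told apart.

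As background, miR-146a is transcribed when Toll-like or cytokine receptors activate NF-κB, and it represses Irak1 and Traf6, adaptors of those same receptors, which closes a negative feedback loop. miR-146b has the same seed, the stretch at bases 2 to 8 that sets most target recognition, and is made from a separate gene. miR-155 is cut from the Mir155hg (Bic) transcript in activated macrophages, B cells and T cells, and it represses Socs1 and Inpp5d, which restrain cytokine signalling. In each of the 3 precursors the 5p arm is the guide strand that is mainly loaded into Argonaute, and the 3p arm is the passenger strand.

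The mature sequences are shown because the seeds define which members can share targets and because miR-146a-5p and miR-146b-5p are nearly identical. They are from RefSeq (GRCm38.p6), 5′ to 3′, with the seed in capitals, and all 6 members had an entry.
mmu-miR-146a-5p: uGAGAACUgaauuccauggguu
mmu-miR-146b-5p: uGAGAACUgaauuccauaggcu
mmu-miR-155-5p: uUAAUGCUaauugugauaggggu
mmu-miR-146a-3p: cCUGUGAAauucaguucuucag
mmu-miR-146b-3p: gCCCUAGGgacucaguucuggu
mmu-miR-155-3p: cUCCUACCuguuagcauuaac

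Both miR-146 guide strands carried the seed GAGAACU, and among 1679 mouse mature miRNAs in the RefSeq table no others did. The seeds of miR-155-5p and of the 3 passenger strands were found in no other miRNA of that table. Over 22 bases, miR-146a-5p and miR-146b-5p matched at 20 and differed by G18A and U21C, counted from 1 at the 5′ end with the base of miR-146a-5p given first. These differences lie outside the seed and near the 3′ end. How the authors assigned reads that match both was not given in the sources used here, so the split between these paralogs is uncertain. The passenger strands were less alike. With miR-146b-3p shifted by 1 base, 12 of 21 positions were identical between miR-146a-3p and miR-146b-3p, against 4 of 22 with no shift, and their seeds differed.

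The precursors, shown with both mature arms in capitals to place guide and passenger in their hairpins, lie on 3 chromosomes.
Mir146: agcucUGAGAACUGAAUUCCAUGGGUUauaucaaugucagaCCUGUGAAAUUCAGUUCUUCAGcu
Mir146b: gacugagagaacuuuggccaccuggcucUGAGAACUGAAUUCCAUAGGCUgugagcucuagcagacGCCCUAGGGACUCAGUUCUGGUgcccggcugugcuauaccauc
Mir155: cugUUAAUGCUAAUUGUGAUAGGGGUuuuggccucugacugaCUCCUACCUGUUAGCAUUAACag

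Mir146 lies on the minus strand at chr11:43374397-43374461, and GENCODE M21 annotates no other gene over it. Mir146b lies on the plus strand at chr19:46342762-46342870, in an intron of the protein-coding gene Mfsd13a, which runs from 46341121 to 46375252 on the same strand. Mir155 lies on the plus strand at chr16:84714140-84714204, in an exon of its noncoding host gene Mir155hg, which runs from 84703167 to 84715245. All coordinates are GRCm38, the build named in the submitters' processing notes.

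The authors deposited a mean normalised read count per genotype, that is reads divided by a size factor for each library and averaged over 2 libraries. Each mean adds whole reads of 2 libraries, each read weighing a fixed amount, so the reads of the single libraries could be worked back for 1121 of 1167 miRNAs. The libraries are called a and b within each genotype, letters that carry no replicate number. Depth was 19201686 to 20063529 reads for the AC3-/- pair and 21071945 to 23190561 reads for the wild-type pair, as far as the summed means fix it. miRNAs of sensory epithelium were abundant in both genotypes, with mean normalised read counts for miR-183-5p of 322736 in AC3-/- and 1304447 in wild type. Adcy3 mRNA, the product of the deleted gene, is out of reach of small RNA sequencing, and the genotype labels were taken as given. Wild-type library b stood apart. Of the 446 miRNAs that could be split and averaged at least 10 normalised reads, 114 differed by 2-fold or more within the wild-type pair, against 26 within the AC3-/- pair. Against AC3-/- libraries a and b, such differences numbered 42 and 52 for wild-type library a and 94 and 111 for wild-type library b. By this count wild-type library a lay closer to AC3-/- than to its partner. With 2 libraries it cannot be told which is typical of wild type. Results are therefore given with and without each wild-type library.

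miR-146a-5p, the guide strand of miR-146a, was the most abundant member in both genotypes. In the authors' deposited table its mean normalised read count was 201431 in AC3-/- and 105973 in wild type, a rank of 12 and 22 among 1167 miRNAs and 2.3% and 0.86% of the summed reads. The AC3-/- mean was 1.9-fold higher, or 2.68-fold higher as a share of the summed reads. The sums were 8739148 normalised reads in AC3-/- and 12320877 in wild type, so shares raise the fold of every miRNA alike. That of miR-146b-5p, for example, goes from 1.19 to 1.67. For this difference the authors' deposited table gives a log2 fold change of 0.72, shrunken toward 0 relative to the ratio of the means, with p = 0.0908 and adjusted p = 0.9395 (Benjamini-Hochberg over all 1167), and it did not pass. By p it ranked 67 of the 1167. The single libraries could not be told apart for this member, because its means allow 186 splits into whole reads in AC3-/- and 54 in wild type. Whatever the split, the wild-type libraries summed to 211946, so at least 1 of them lay at or below 105973, and at least 1 AC3-/- library lay at or above 201431. This is true of any 2 values with these means and does not show whether the genotypes overlapped.

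miR-155-5p, the guide strand of miR-155, averaged 1537.9 normalised reads in AC3-/- against 812.0 in wild type, a 1.89-fold higher mean. AC3-/- libraries a and b held 1277.1 and 1798.7 normalised reads (1466 and 1976 reads). Wild-type libraries a and b held 1282.5 and 341.5 (1207 and 292 reads). Wild-type library a lay inside the range of the AC3-/- libraries, so the genotypes overlapped, and wild-type library b lay 3.76-fold below its partner. Counting error does not span that gap, with 95% exact Poisson intervals of 1211 to 1357 and 303.4 to 383 normalised reads. As reads were amplified by PCR and no molecular identifiers are described, these intervals cover counting error only. The authors' deposited table gives miR-155-5p a log2 fold change of 0.60 (p = 0.2166, adjusted p = 0.9395).

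miR-146b-5p, the paralog with the same seed, differed little between the genotype means, at 13289 for AC3-/- against 11207 for wild type, a ratio of 1.19. The AC3-/- libraries held 14181 and 12397 normalised reads and the wild-type libraries 15522 and 6892.5, library a first. The highest and the lowest value both belonged to wild type, 2.25-fold apart. The authors' deposited table lists it at a log2 fold change of 0.19 (adjusted p = 0.9503).

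The 3 passenger strands were scarce in every library, with at most 24 reads. miR-155-3p had 13 and 24 reads in the AC3-/- libraries and 16 and 0 in the wild-type libraries, library a first here and in what follows. A count of 0 in wild-type library b allows up to 3.508 normalised reads at a limit of 3 counts, against 17.0 in library a. miR-146b-3p had 14 and 14 reads in AC3-/- and 16 and 3 in wild type, and miR-146a-3p had 2 and 7 in AC3-/- and 6 and 0 in wild type. For all 3 the genotypes overlapped. In the authors' deposited table the log2 fold changes were 0.29, 0.14 and 0.08 for miR-155-3p, miR-146b-3p and miR-146a-3p, with adjusted p-values of 0.9395, 0.979 and 0.979.

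**Figure D1:**
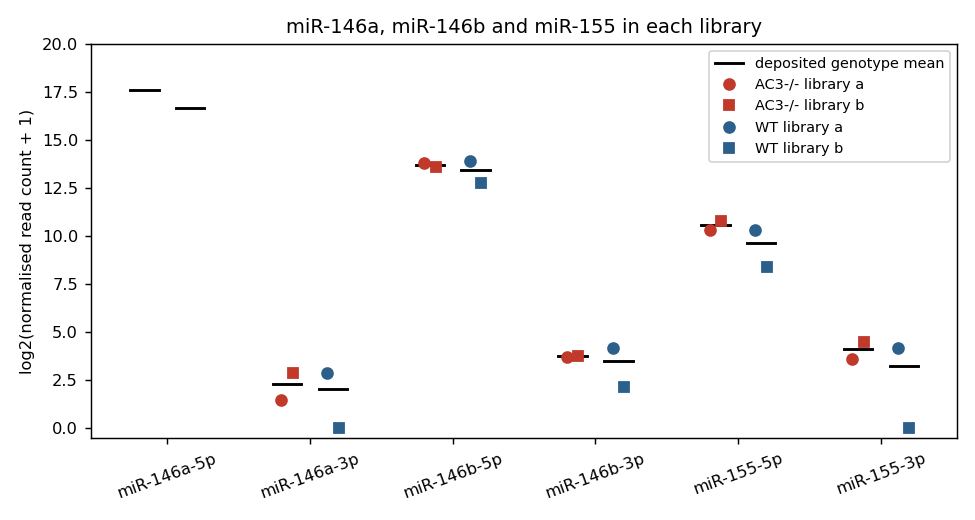
Normalised read counts of the 6 miRNAs on a log2(value + 1) scale, with red points for the AC3-/- libraries, blue points for the wild-type libraries (circles library a, squares library b) and black lines for the deposited genotype means. miR-146a-5p has means only, at 201431 and 105973, and in the other 5 miRNAs wild-type library b is the lowest point.

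None of the 6 members passed an adjusted p of 0.05 in the authors' deposited table, where 0.0857% of all miRNAs did, and none had an unadjusted p under 0.05, which 3.51% did (1.54% as higher in AC3-/-). All 6 had a log2 fold change above 0, as did 49.5% of the table, with a median of 0.24 over the 6 against -0.01 over all 1167. The 6 are not independent, since they come from 3 precursors measured in the same 4 libraries. Of the 5 members with library values, wild-type library b was the lowest of the 4 libraries in 5, which held for 21.9% of 1121 miRNAs with library values and reads. Among those with a mean of at least 10 it was the lowest for 4 of 4 members and for 33.6% of 446 miRNAs. By the log2 difference of wild-type library a minus b, these members ranked 2 (miR-155-3p), 12 (miR-146b-3p), 15 (miR-155-5p) and 45 (miR-146b-5p) of the 446. The ranks of the passenger strands miR-155-3p and miR-146b-3p rest on 0 and 3 reads in library b. In 0 of 5 members were the genotypes free of overlap, against 28.3% of the 1121 miRNAs.

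**Figure D2:**
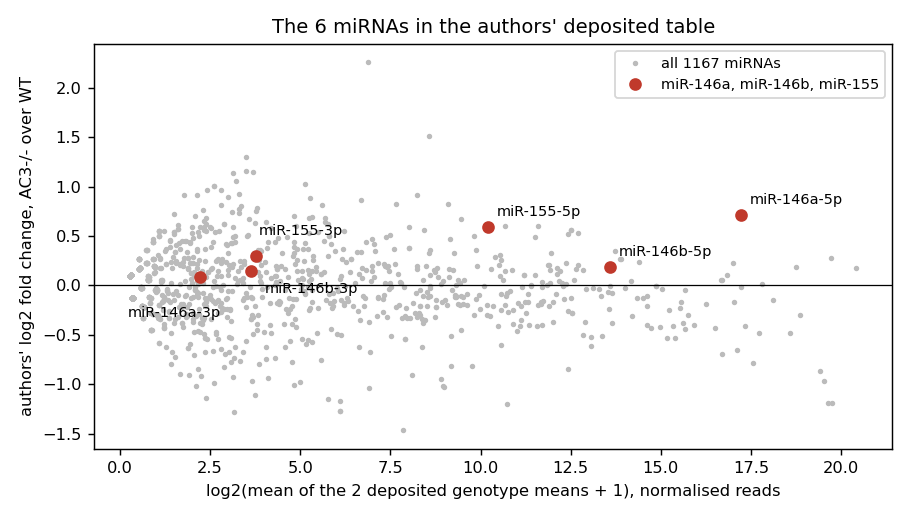
Log2 fold change from the authors' deposited table, AC3-/- relative to wild type (y axis), against the mean level (x axis, log2 of normalised reads + 1) for all 1167 miRNAs, with the 6 members in red. miR-146a-5p at 0.72 and miR-155-5p at 0.60 are the highest of the 6, and each member lies above 0 without passing the adjusted p.

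limma, fitted to log2(normalised value + 1) of 446 miRNAs in the 4 libraries, called 0 of the 4 members it could test and 0% of all 446, of which 18 (4.04%) had an unadjusted p under 0.05. For miR-155-5p the log2 difference of AC3-/- minus wild type was 1.19 with a standard error of 0.67 (95% interval -0.48 to 2.87, limma adjusted p = 0.932). For miR-146b-5p it was 0.36 with a standard error of 0.40 (-0.64 to 1.35, limma adjusted p = 0.932). The passenger strands miR-155-3p and miR-146b-3p had 1.98 and 0.58 with standard errors of 1.42 and 0.80 (limma adjusted p = 0.932 for each). Adding 1 to each value understates the change of low miRNAs. The value for miR-155-3p rests on the 0 reads of wild-type library b, where the added 1 sets the level, and this member reached the mean of 10 through AC3-/- alone (wild-type mean 8.50). An exact permutation test, two-sided, of 2 libraries against 2 cannot go below p = 0.333, and it gave 0.667 for miR-155-5p and miR-155-3p and 1.0 for miR-146b-5p, miR-146b-3p and miR-146a-3p.

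These differences depended on which wild-type library was used. Without wild-type library b, the log2 difference was 0.24 for miR-155-5p (95% interval -0.45 to 0.93, limma adjusted p = 0.854) and turned negative for the other 3, at -0.23 for miR-146b-5p, -0.42 for miR-146b-3p and -0.10 for miR-155-3p. Of all 221 miRNAs above 0 with 4 libraries, 34.4% changed sign in that fit. It called 0 of the 4 members and 0.224% of 446 miRNAs. Without wild-type library a, both guide strands passed as higher in AC3-/-, where 7.17% of 446 miRNAs did. There the log2 difference was 2.15 for miR-155-5p (limma adjusted p = 0.000325) and 0.94 for miR-146b-5p (limma adjusted p = 0.00131), while miR-146b-3p, at 1.58, did not pass (limma adjusted p = 0.243). miR-155-3p, at 4.07 (limma adjusted p = 0.0133), is not counted with them, since its only wild-type value was then 0 reads and the difference is set by the added 1. In each of these fits the lone wild-type library is assumed to vary like the AC3-/- pair.

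**Figure D3:**
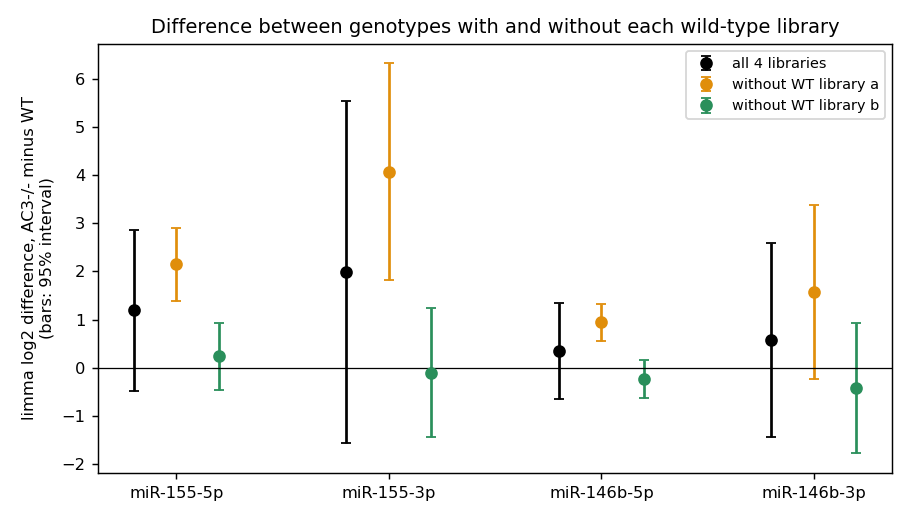
limma log2 difference, AC3-/- minus wild type, for the 4 members tested, with bars for the 95% interval, from all 4 libraries (black), without wild-type library a (orange) and without wild-type library b (green). For miR-155-5p the value moves from 1.19 to 2.15 without library a and to 0.24 without library b, and the orange point of miR-155-3p is set by the added 1, as its wild-type value is then 0 reads.

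Against miR-142a-3p, one arm of a precursor made throughout the blood lineage and used here as a leukocyte marker, miR-155-5p was nearly even. There were 19.1 and 21.5 miR-155-5p reads per 100 miR-142a-3p reads in the AC3-/- libraries, and 19.5 and 18.0 in the wild-type libraries. The highest and lowest of these ratios lay 1.2-fold apart, while miR-155-5p itself spanned 5.27-fold over the same libraries. The 95% counting intervals were 18.0 to 20.2 and 20.5 to 22.6 in AC3-/- and 18.4 to 20.8 and 15.8 to 20.4 in wild type, so that of AC3-/- library b, the highest, overlapped only that of wild-type library a. Such a ratio does not depend on the size factors.

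The evenness was not shared by the other leukocyte markers, all 8 of which were tried as the partner after these values were seen. Per 100 reads of miR-142a-5p, the other arm of the same precursor, there were 27.7 and 32.7 miR-155-5p reads in AC3-/- and 19.7 and 15.1 in wild type. These ratios spanned 2.17-fold, and AC3-/- lay above wild type without overlap. Against miR-150-5p, a miRNA of mature lymphocytes, there were 142 and 139 per 100 in AC3-/- and 116 and 72.1 in wild type. Against miR-223-3p, a miRNA of myeloid cells, there were 202 and 244 in AC3-/- and 119 and 160 in wild type. For miR-223-3p the 95% counting intervals of AC3-/- library a (185 to 221) and wild-type library b (132 to 193) overlapped. Against miR-342-3p, which had at least 1002 reads in each library, the genotypes overlapped, with 80.9 and 72.7 in AC3-/- and 98.1 and 29.1 in wild type. Those to miR-142a-5p, miR-150-5p and miR-223-3p were the only 3 of the 8 ratios without overlap of the genotypes. For comparison, the levels of 28.3% of 1121 miRNAs did not overlap, and no such share was worked out for ratios. The 8 ratios spanned from 1.2-fold to 8.27-fold, the widest with a marker of only 3 reads in 1 library. Whether miR-155-5p kept step with leukocyte miRNAs thus depended on the marker.

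For miR-146b-5p the partner mattered as well. There were 212 and 148 miR-146b-5p reads per 100 miR-142a-3p reads in the AC3-/- libraries and 236 and 362 in the wild-type libraries, with counting intervals that did not overlap. Wild-type library b, lowest in miR-146b-5p itself, was highest in this ratio, which spanned 2.44-fold. Per 100 miR-142a-5p reads there were 308 and 226 in AC3-/- and 238 and 304 in wild type, a span of 1.36-fold in which the genotypes overlapped. Of the 8 markers, miR-142a-3p alone gave a ratio to miR-146b-5p without overlap of the genotypes. The levels of 28.3% of 1121 miRNAs did not overlap, so 1 of 8 is not read as a pattern. Each miR-155-5p read was accompanied by 11.1 and 6.89 miR-146b-5p reads in the AC3-/- libraries and by 12.1 and 20.2 in the wild-type libraries. Wild type lay above AC3-/- in this ratio, whose partner was chosen after the values were seen. Groups of 2 that do not overlap reach an exact permutation p of no less than 0.333.

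**Figure D4:**
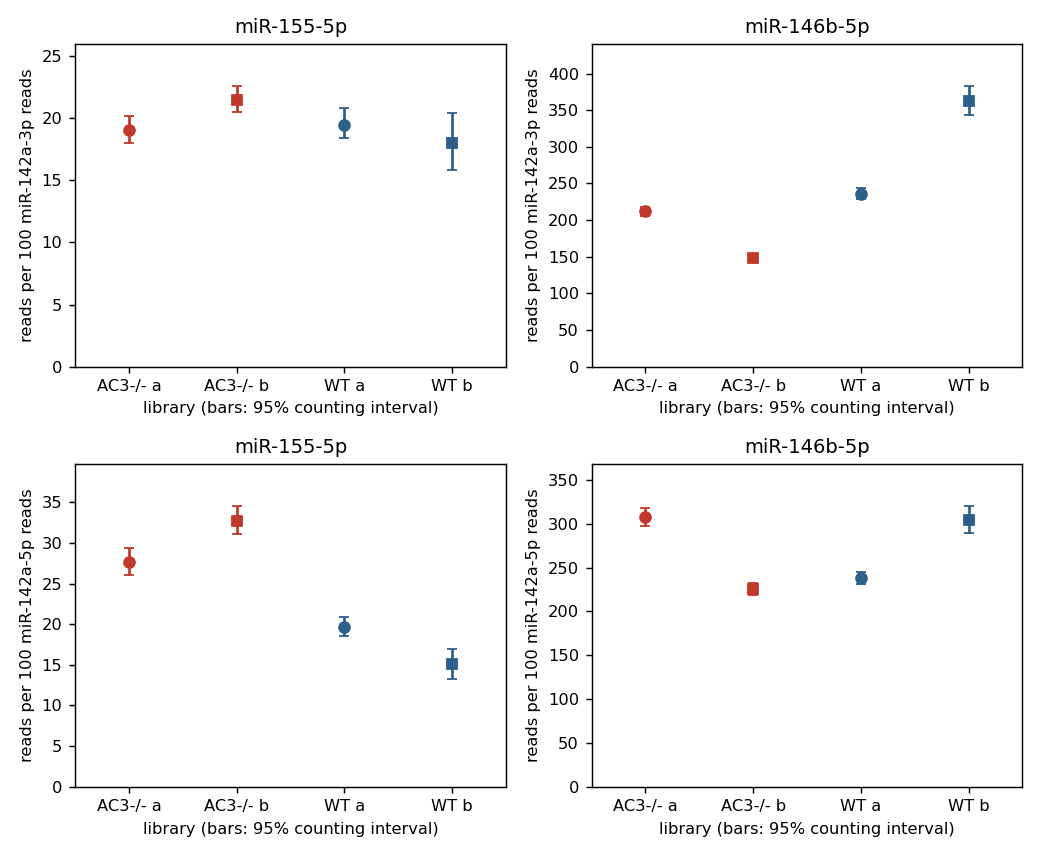
Reads of miR-155-5p (left) and miR-146b-5p (right) per 100 reads of miR-142a-3p (top) or miR-142a-5p (bottom) in each library, red for AC3-/- and blue for wild type, with bars for the 95% counting interval and y axes starting at 0. miR-155-5p stays between 18.0 and 21.5 per 100 miR-142a-3p reads but runs from 15.1 to 32.7 per 100 miR-142a-5p reads, and miR-146b-5p runs from 148 to 362 and from 226 to 308.

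miR-146a-5p could be set against the others only through the deposited genotype means, which have no error of their own. It had 131 reads per miR-155-5p read in AC3-/- and 131 in wild type. It had 26.8 and 25 per miR-142a-3p read, but 39.9 and 24.1 per miR-142a-5p read, a 1.65-fold difference. Each miR-146b-5p read stood beside 15.2 miR-146a-5p reads for AC3-/- and 9.46 for wild type, a 1.6-fold difference. Over the 8 leukocyte markers the AC3-/- ratio was 0.775 to 2.24 times the wild-type ratio.

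No difference in the balance between arms was detectable at this depth. miR-155-3p made up 0.887 and 1.21 reads per 100 miR-155-5p reads in the AC3-/- libraries and 1.33 in wild-type library a. Wild-type library b had 0 miR-155-3p reads beside 292 miR-155-5p reads, with a 95% counting interval of 0 to 1.27 per 100. miR-146b-3p stood at 0.086 and 0.103 per 100 miR-146b-5p reads in AC3-/- and at 0.11 and 0.0509 in wild type, with overlapping counting intervals. For miR-146a the genotype means gave 0.00201 and 0.00301 miR-146a-3p reads per 100 miR-146a-5p reads, from 9 and 6 reads of the passenger strand in all.

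The members spanned a wide range of levels, in the order miR-146a-5p, miR-146b-5p, miR-155-5p, then the passenger strands. Among the passenger strands the order was miR-155-3p, miR-146b-3p, miR-146a-3p in the AC3-/- mean and miR-146b-3p, miR-155-3p, miR-146a-3p in the wild-type mean. miR-155-3p and miR-146b-3p, with 16 reads each in wild-type library a, did not differ beyond counting error. The mature forms are 21 to 23 bases long, so no scaling by length was made. Adaptor ligation and PCR favour some sequences, and levels of different miRNAs are therefore not molecule numbers.

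Across the 4 libraries, the miRNAs whose log2 levels followed miR-155-5p most closely were miR-10a-5p (Pearson r = 0.9995), miR-423-5p (0.9983), miR-142a-3p and miR-142b, which have identical values (0.9982), and miR-32-5p (0.9918), out of 249 miRNAs with a mean of at least 100. These are descriptions over 4 points that share the low wild-type library b, and 34 of the 249 had r above 0.9. They differed in the size of the swing. miR-10a-5p had 7310.7 and 9290.9 normalised reads in AC3-/- and 7357.3 and 2465.1 in wild type, 2.98-fold between the wild-type libraries, while miR-423-5p differed there by 1.25-fold and miR-32-5p by 1.35-fold. miR-146b-5p came at rank 35 with r = 0.8937.

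**Figure D5:**
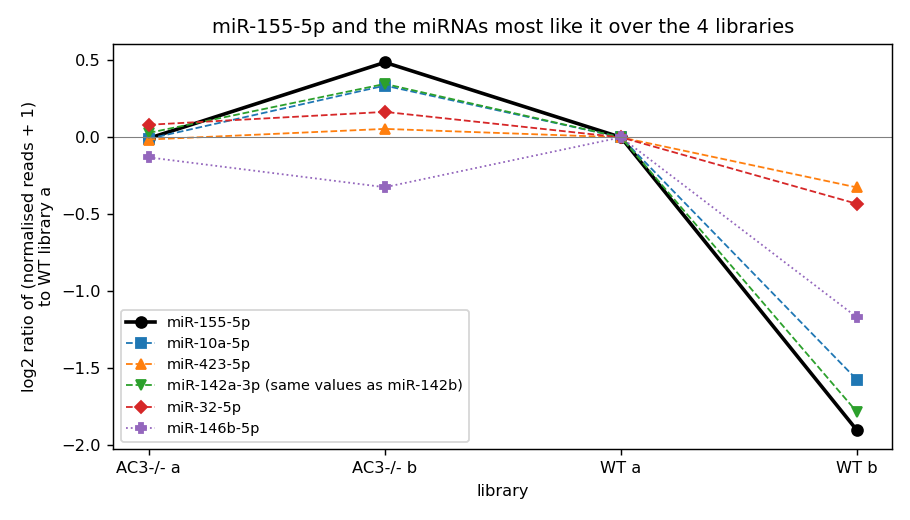
Log2 ratio of each library's normalised reads (+ 1) to wild-type library a for miR-155-5p (black), the miRNAs most like it and miR-146b-5p. Lines join the values of 1 miRNA and stand for no order. Of the miRNAs drawn, miR-155-5p and miR-142a-3p lie lowest in wild-type library b, where miR-142a-3p is 3.45-fold below library a.

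Among the marker lists of cells that the tissue could hold, the leukocyte and multiciliated lists were mostly low in wild-type library b, and the red blood cell list less so. Of 8 leukocyte miRNAs, 6 were lowest in that library, as were 21.9% of 1121 miRNAs with library values and reads. The scarce miR-342-5p and miR-150-3p were instead higher there than in wild-type library a, at 43.3 against 21.3 and 7.02 against 3.19 normalised reads. The summed level of the 8 was 14587 and 18534 normalised reads in the AC3-/- libraries and 16875 and 6109 in the wild-type libraries, with none at 0 in any library. Both arms of miR-142a carried most of that sum. By the authors' deposited table, 7 of the 8 lay above 0 (median log2 fold change 0.25), and 0 passed. The summed level of 5 red blood cell miRNAs was 6949.1 and 5259.4 in AC3-/- and 6600.7 and 3698.8 in wild type, a sum carried by miR-451a, with 3 of 5 lowest in wild-type library b. Their median log2 ratio to wild-type library a was -0.72 in wild-type library b and -0.72 in AC3-/- library b. 1 of the 5 lay above 0 in the authors' deposited table, and their median was -0.10. Of 8 multiciliated-cell miRNAs with library values, 7 were lowest in wild-type library b, where they summed to 5975.7 against 30648 in library a and 13869 and 26257 in AC3-/-. All 9 of that list had a log2 fold change above 0 by the authors' deposited table (median 0.05). The sensory-organ cluster around miR-183 went the other way, highest in wild-type library b for 3 of 3 members with library values, at 6309.0 in sum against 1317.6 in library a and 1373.8 and 659.93 in AC3-/-. These 3 are the scarcer arms miR-182-3p, miR-183-3p and miR-96-3p. The far more abundant miR-183-5p, miR-182-5p and miR-96-5p could not be split. The miR-200 family was highest there for 3 of the 4 with library values, all 5p arms. Of these 2 lists, 0 of 6 and 0 of 10 members had a log2 fold change above 0 by the authors' deposited table (medians -0.89 and -0.54). The part of any of these cell types in the values of miR-146a, miR-146b and miR-155 was not tested.

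Other miRNAs linked to Toll-like receptor and NF-κB signalling did not lie to one side between the genotypes in the authors' deposited table. Of 18 on that list, 8 lay above 0 and 10 below. Their median there was -0.02 on the log2 scale against -0.01 over all 1167, and 0 passed the adjusted p. 1 of the 18 had an unadjusted p under 0.05, as did 3.51% of all 1167. It was miR-187-5p, with 0 and 0 reads in AC3-/- and 6 and 2 in wild type (authors' deposited table, adjusted p = 0.9395). In the limma fit to all 4 libraries, 9 of the 14 list miRNAs tested lay above 0, as did 49.6% of 446 miRNAs. Their median log2 difference was 0.136 against -0.00428 over the 446, and limma called 0 of the 14. miR-21a-5p, induced in many inflamed tissues and the most abundant of the list, averaged 999383 in AC3-/- against 716969 in wild type, at a log2 fold change of 0.28 in the authors' deposited table. miR-9-5p, which is induced by Toll-like receptor ligands in human monocytes and is also a neural progenitor miRNA, had means of 107472 and 103336. miR-223-3p and miR-223-5p stand on this list and among the leukocyte markers. With library values, 6 of 15 on the list were lowest in wild-type library b, as were 21.9% of 1121 miRNAs with library values and reads.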

How the data were processed

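The authors deposited 1 table with a signal, the mean normalised read count of each genotype, a log2 fold change, a p-value and an adjusted p-value, per the file headers. The adjusted p equals a Benjamini-Hochberg adjustment over all 1167 rows. Bowtie, DESeq 1.8.3 and GRCm38 appear in the submitters' processing notes without a role. How reads were counted, and on which miRBase release, is not given in the sources used here. Per the labels' protocols, libraries were ligated at both ends, amplified by PCR and selected by length on a gel.

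Reads per library were worked back from the means, with 1 solution for 96.1% of AC3-/- and 96.2% of wild-type rows, and every row had a solution. The recovery was tested on simulated tables. Size factors were 1.148 and 1.099 (AC3-/- a, b) and 0.9411 and 0.8551 (wild type a, b). limma 3.58.1 (R 4.3.3) with a trend on intensity was fitted to log2(normalised value + 1) of the 446 miRNAs that could be split and averaged at least 10, and tested on simulated data. Ratio intervals are exact binomial (Clopper-Pearson) at 95%. Named were the 6 members, list members by count with the most abundant ones, and the 5 miRNAs most like miR-155-5p. miR-187-5p and the ratio partners other than miR-142a-3p were chosen after their values were seen. The members and lists were chosen with earlier results of these data known. Alternatives were other pseudocounts, filters and scalings, no trend, and each library left out.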

Additional observations from a re-analysis of the deposited data

How the results depend on the processing

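By the authors' deposited table, 1 miRNA passed the adjusted p of 0.05, none of them a member, and 41 had an unadjusted p under 0.05. With each library left out in turn, limma called between 0 and 64 miRNAs. The log2 difference then ranged from 0.24 to 2.15 for miR-155-5p, from -0.10 to 4.07 for miR-155-3p, from -0.23 to 0.94 for miR-146b-5p and from -0.42 to 1.58 for miR-146b-3p; the negative values are those without wild-type library b, and the highest those without wild-type library a, where that of miR-155-3p rests on 0 wild-type reads. Other pseudocounts, filters, scalings and the fit with no trend called 0 miRNAs and left the sign of the differences they tested as it was, but the filter at a mean of 100 tested only miR-155-5p and miR-146b-5p, and with a pseudocount of 0.5 or 5 miR-155-3p moved to 2.46 or 1.00. By single wild-type library, miR-155-5p reads ranged from 18.0 to 19.5 per 100 miR-142a-3p reads, from 15.1 to 19.7 per 100 miR-142a-5p reads and from 119 to 160 per 100 miR-223-3p reads. miR-146b-5p reads ranged from 236 to 362 per 100 miR-142a-3p reads, from 238 to 304 per 100 miR-142a-5p reads and from 12.1 to 20.2 per miR-155-5p read, and miR-155-3p from 0 to 1.33 per 100 miR-155-5p reads. Depth limits the passenger strands, and miR-146a-5p has no library values under any setting. No paired analysis was possible because the deposited columns are genotype means and the library letters carry no replicate number.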

Other observations

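On the Toll-like receptor and NF-κB list, 5 of 15 miRNAs with library values had a larger fold between wild-type libraries a and b than miR-155-5p. They are miR-147-3p (36.0-fold), miR-147-5p (9.09-fold), miR-223-5p (8.62-fold), miR-21a-3p (6.11-fold) and miR-223-3p (5.04-fold), named after their values were seen. A gap this large was uncommon, as miR-155-5p itself ranked 15 of the 446 miRNAs with a mean of at least 10, on log2(normalised value + 1). miR-147-3p, which is induced in macrophages by Toll-like receptor ligands, had 54 and 85 reads in the AC3-/- pair and 119 and 3 in the wild-type pair, library a first. miR-223-5p, the passenger strand of a myeloid miRNA, had 143 and 146 reads in AC3-/- and 256 and 27 in wild type. miR-147-3p, miR-223-5p and miR-21a-3p had a log2 fold change below 0 in the authors' deposited table, as the high wild-type library a offset library b. The values were -0.02, -0.12 and -0.009. miR-223-3p and miR-147-5p lay above 0 there, at 0.05 and 0.20. let-7e-5p and miR-99b-5p, from 1 cluster with miR-125a, were nearly even across the 4 libraries. let-7e-5p had 9986.0 and 9889.8 normalised reads in AC3-/- and 10987 and 10540 in wild type. miR-99b-5p had 19947 and 17741 in AC3-/- and 18623 and 17779 in wild type.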
